A study of Mus musculus with 12 samples.

Results

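The 10 genes described here encode cytokine receptor chains (*Il4ra*, *Il21r*, *Il2rg*, *Il10ra*, *Ifngr1*, *Ifngr2*, *Ifnar1* and *Ifnar2*) and the feedback inhibitors *Socs1* and *Socs3*. They were chosen by symbol, with earlier results of these data known. All 10 were among the 12837 genes listed in both deposited count tables. The RNA came from follicular B cells, the main recirculating mature B cells of the spleen, sorted as CD21/35- CD23+ from adult male mice. WT mice were Gpr174+/Y. KO mice were Gpr174-/Y, with the single coding exon of this X-linked G-protein-coupled receptor gene replaced in the germline by an in-frame tdTomato reporter, an allele targeted in ES cells of another strain and backcrossed to C57BL/6J. Sorted cells were either frozen at once (0 h) or kept for 4 h in complete RPMI medium before lysis. Both genotypes were treated alike, with no added stimulus or cytokine, and there were 3 libraries in each of the 4 groups.

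Most cytokine receptors on B cells have no kinase activity of their own and work as pairs of chains. When a ligand joins the chains, Janus kinases (JAKs) bound to their tails phosphorylate STAT transcription factors, which enter the nucleus. SOCS genes are among the genes that STATs switch on, and their proteins block the receptor or the kinase in a feedback loop. In B cells IL-4 raises CD23 and class switching, IL-21 drives germinal center and plasma cell responses, and interferons set antiviral and antibody isotype programs.

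Levels are CPM, counts scaled to a library of 1000000 reads with a correction for composition (TMM), given as mean ± SD (n = 3) or per library for replicates 1 to 3 in that order. Genotype differences are KO minus WT and culture differences are 4 h minus 0 h, both as log2 fold changes ± SE. Each time is a separate deposited table, so a difference between the tables cannot be told apart from culture. A gene was called where the Benjamini-Hochberg adjusted p of edgeR's quasi-likelihood test over all genes was under 0.05. Library totals ran from 6098941 to 11618787 counts. The labels do not tie libraries to single mice, so the p-values measure the spread between these libraries. *Gpr174* itself was lower in every KO library than in every WT library of the same time, at 74.6 ± 1.54 against 152.1 ± 4.45 CPM at 0 h and 109.6 ± 7.54 against 161.5 ± 8.09 CPM at 4 h, a count over all exons of the gene that checks the replaced exon only in part. All 6 general B cell markers searched were present, at a summed 5190 to 7220 CPM per library. *Fcer2a*, which encodes the CD23 of the sort gate, was at 1480 to 1570 CPM in WT 0 h, and *Ighd* was not listed. *Cr2*, which encodes the CD21/35 that the gate excludes at the surface, had a mean of 1070 CPM in WT 0 h. One library stood apart in interferon-induced genes. The summed level of *Ifit1*, *Ifit3* and *Mx1*, chosen after their values were seen, was 43.1 CPM in WT 4 h replicate 3 against 5.32 and 5.61 CPM in the other WT 4 h libraries and 6.66 to 9.09 CPM in KO 4 h, and results that rest on that library are given without it.

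Before culture, no call was made among these genes, and after culture most of them differed between genotypes. At 0 h 0 of 10 were called, where 0.987% of all genes tested were (0.485% higher and 0.502% lower in KO). DESeq2 also called 0, and 4 had an unadjusted edgeR p under 0.05. The share of all genes under that unadjusted threshold is not given here, so the 4 is not read as a result. At 4 h 8 of the 9 that could be tested were called, where 10.9% of all genes were. *Il4ra* and *Il21r* were higher in KO (5.67% of all genes were), while *Il2rg*, *Il10ra*, *Ifngr1*, *Ifngr2*, *Ifnar1* and *Socs3* were lower in KO (5.22% of all genes were). Without WT 4 h replicate 3 the count was 5, with *Il2rg*, *Ifngr2* and *Ifnar1* not called. The share of all genes called in that fit is not given here. The median log2 fold change at 4 h was -0.23 over the 9 tested and -0.005 over all genes. The 2 genotypes' libraries did not overlap for 3 of 10 at 0 h (18.3% of all genes) and for 8 of 9 at 4 h (27.8% of all genes).

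**Figure D1:**
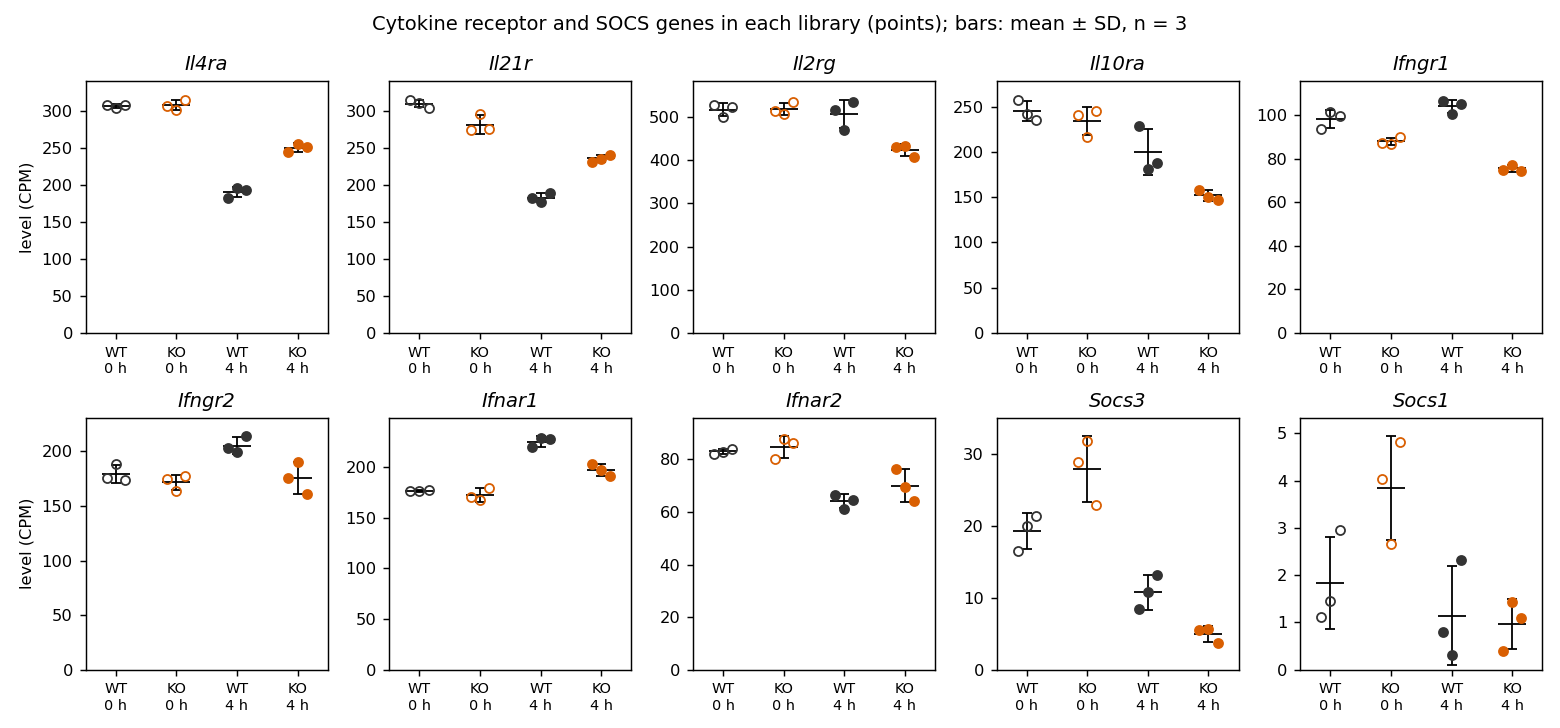
CPM of each gene (vertical axis, from 0) in the 12 libraries, with WT in black, KO in orange, 0 h as open and 4 h as filled points, and bars for the mean ± SD of 3 libraries. After culture *Il4ra* lay at 183 to 195.8 CPM in WT and 244.6 to 256.3 CPM in KO, while *Socs3* lay at 8.39 to 13.2 CPM in WT and 3.67 to 5.62 CPM in KO.

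*Il4ra* and *Il21r* lie next to each other on chromosome 7 (GENCODE M21 on GRCm38, which is mm10), at 125552120 to 125579474 and 125603429 to 125633570. Both are on the plus strand with 24.0 kb and no protein-coding gene between them. The interferon chains *Ifnar2* (91372783 to 91405589), *Ifnar1* (91485238 to 91507441) and *Ifngr2* (91547072 to 91565623) form a cluster with *Il10rb* on the plus strand of chromosome 16. *Il2rg* (chromosome X, 101264378 to 101268255, minus strand) lies 5.99 Mb from *Gpr174*. *Il10ra* is on chromosome 9 (45253837 to 45269149, minus strand), *Ifngr1* on chromosome 10 (19591949 to 19610229, plus strand), *Socs3* on chromosome 11 (117966079 to 117970047, minus strand) and *Socs1* on chromosome 16 (10782240 to 10785536, minus strand). Overlapping models make some counts uncertain, since *Il2rg* lies wholly within Gm20489 and *Ifnar2* shares sequence with Gm21970, both protein-coding models on the same strand, and an antisense model, Gm44876, lies in *Il4ra*. None of these models was listed in the deposited tables.

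RefSeq promoter windows (GRCm38.p6, 250 bases before to 50 after the start) were found for 9 of the 10 genes. The *Il4ra* and *Il21r* sequences just upstream of every annotated start are shown because these neighbors moved together, and neither window held a searched motif, so no base is in capitals.
Il4ra, chr7:125552021-125552119, plus strand: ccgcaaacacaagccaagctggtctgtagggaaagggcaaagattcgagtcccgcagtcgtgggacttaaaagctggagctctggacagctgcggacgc
Il21r, chr7:125603329-125603428, plus strand: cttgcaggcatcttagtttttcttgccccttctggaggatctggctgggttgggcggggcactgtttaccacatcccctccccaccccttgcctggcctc

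The motifs searched on both strands were the cAMP response element TGACGTCA, its half-site TGACG, which also lies inside the full element, the STAT site TTCNNNGAA, and its form with 4 free bases between TTC and GAA. The full element was in 0 of 9 windows and in 1.79% of all 32851 RefSeq windows. The half-site was in 1 of 9 (*Ifnar1*) and in 20.8% of all windows. The STAT site was in 3 of 9 and in 8.3% of all windows, and the longer form in 1 of 9 (*Ifngr2*) and in 6.95% of all. The stretches around the STAT matches are shown because SOCS genes are STAT targets, with the matched letters in capitals. They describe these windows and are not evidence of binding. Except for that of *Socs3*, they lie upstream of the gene and in no exon of the GENCODE M21 models. The *Ifnar1* match begins 5 bases before the RefSeq start of its window and runs across that start.
Socs3, chr11:117969502-117969530, minus strand, in an intron of a noncoding transcript model: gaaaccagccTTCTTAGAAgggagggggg
Ifnar1, chr16:91485200-91485228, plus strand: ggcgggggcgTTCACGGAAggggcggggc
Ifnar2, chr16:91372559-91372587, plus strand: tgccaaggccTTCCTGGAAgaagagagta
Ifngr2, chr16:91546958-91546987, plus strand: ggggccgcggTTCCCGGGAAcaccggggaa

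*Il4ra* encodes the chain that binds IL-4 and, in a complex with another partner, IL-13. Its level was 308, 304 and 309 CPM in WT 0 h and 308, 302 and 316 CPM in KO 0 h. After culture it was 183, 196 and 194 CPM in WT and 245, 256 and 251 CPM in KO. The genotypes overlapped at 0 h and all KO libraries were above all WT libraries at 4 h. The 4 h difference was 0.39 ± 0.06 (adjusted p = 0.000273, 1.31-fold higher in KO), while that at 0 h was 0.02 ± 0.05 (adjusted p = 0.926). Over culture *Il4ra* fell in both genotypes, 1.61-fold in WT (log2 fold change -0.68 ± 0.05, adjusted p = 8.93e-10) and 1.23-fold in KO (-0.30 ± 0.05, adjusted p = 0.000136).

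*Il21r* encodes the IL-21 receptor chain and followed the same course. It was counted at 315, 310.1 and 304 CPM in WT 0 h, 274, 296 and 275 CPM in KO 0 h, 183, 177 and 189 CPM in WT 4 h and 231, 236 and 240.4 CPM in KO 4 h. The KO libraries thus lay below the WT libraries at 0 h and above them at 4 h. The 0 h difference of -0.13 ± 0.05 was not called (adjusted p = 0.314), and the 4 h difference was 0.37 ± 0.06 (adjusted p = 0.000437, 1.29-fold higher in KO). Over culture *Il21r* fell 1.69-fold in WT (-0.76 ± 0.05, adjusted p = 3.24e-10) and 1.20-fold in KO (-0.26 ± 0.05, adjusted p = 0.00107).

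*Il2rg* encodes the common gamma chain, which pairs with IL-4R alpha, IL-21R and several other chains and binds JAK3. It had the highest level of the 10 per kb of exon in every group, and it was at 528, 499 and 523 CPM in WT 0 h and 514, 507 and 534 CPM in KO 0 h. After 4 h it was at 516, 469.7 and 534 CPM in WT and 430.3, 433 and 408 CPM in KO, so the WT groups overlapped across time and the KO 4 h libraries lay below all others. The genotype difference was 0.01 ± 0.05 at 0 h (adjusted p = 0.937) and -0.26 ± 0.06 at 4 h (adjusted p = 0.0113, 1.20-fold lower in KO). The 4 h call was lost without WT 4 h replicate 3 (adjusted p = 0.0602) and without KO 4 h replicate 3 (adjusted p = 0.0736). Over culture *Il2rg* fell in KO (-0.29 ± 0.05, adjusted p = 0.000403). In WT the change was -0.03 ± 0.05 (adjusted p = 0.757), a value that turned positive, 0.08, with library totals alone.

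*Il10ra* encodes the ligand-binding chain for IL-10, which restrains antigen presentation in myeloid cells and supports B cell differentiation. It stood at 258, 242 and 236 CPM in WT 0 h, 241, 217 and 245 CPM in KO 0 h, 229, 182 and 188 CPM in WT 4 h and 158, 151 and 147 CPM in KO 4 h. It was lower at 4 h than at 0 h in both genotypes, with WT 4 h replicate 1 close to the 0 h libraries, and all KO 4 h libraries were below the WT 4 h libraries. The 4 h genotype difference was -0.39 ± 0.08 (adjusted p = 0.00352, 1.31-fold lower in KO), and that at 0 h was -0.05 ± 0.06 (adjusted p = 0.766). The fall over culture was 1.23-fold in WT (adjusted p = 0.00337) and 1.54-fold in KO (adjusted p = 1.8e-06). *Il10rb*, the second IL-10 receptor chain, had means of 73.2 CPM in WT 0 h, 61.1 CPM in KO 0 h, 55.0 CPM in WT 4 h and 61.9 CPM in KO 4 h, and its 4 h genotype difference of 0.16 ± 0.08 was not called (adjusted p = 0.256).

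*Ifngr1* and *Ifngr2* encode the ligand-binding and the signal-transducing chain for interferon gamma. *Ifngr1* was at 93.7, 101 and 99.8 CPM in WT 0 h, 87.1, 86.8 and 89.9 CPM in KO 0 h, 106, 100.5 and 105 CPM in WT 4 h and 74.8, 77.3 and 74.6 CPM in KO 4 h. KO libraries lay below WT libraries at both times, with the wider gap at 4 h. The 0 h difference of -0.15 ± 0.07 was not called (adjusted p = 0.353), and the 4 h difference was -0.46 ± 0.07 (adjusted p = 0.00016, 1.38-fold lower in KO). *Ifngr2* was at 176, 189 and 174 CPM in WT 0 h, 175, 164 and 177 CPM in KO 0 h, 203, 199 and 214 CPM in WT 4 h and 175, 190 and 161 CPM in KO 4 h. Its genotypes overlapped at 0 h and did not overlap at 4 h, where the difference was -0.23 ± 0.07 (adjusted p = 0.0394, 1.17-fold lower in KO). That call was lost without WT 4 h replicate 1 or 3 and without KO 4 h replicate 1 or 3 (adjusted p = 0.0544 to 0.202).

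*Ifnar1* and *Ifnar2* encode the chains of the receptor for interferon alpha and beta, of which IFNAR2 binds these ligands the more tightly. *Ifnar1* was at 176, 176 and 177 CPM in WT 0 h, 170.2, 167 and 179.6 CPM in KO 0 h, 219, 228 and 228 CPM in WT 4 h and 203, 197 and 191 CPM in KO 4 h. It rose over culture in both genotypes, 1.28-fold in WT (adjusted p = 1.85e-05) and 1.14-fold in KO (adjusted p = 0.012). Its level at 4 h was 1.14-fold lower in KO (-0.20 ± 0.06, adjusted p = 0.0387), a call that was lost without each 4 h library in turn except WT replicate 1 (adjusted p = 0.0731 to 0.166). *Ifnar2* went the other way over culture, from 82.2, 82.9 and 84.0 CPM to 66.6, 61.2 and 64.4 CPM in WT and from 80.0, 87.6 and 86.4 CPM to 76.4, 69.6 and 64.0 CPM in KO. This was a fall of 1.29-fold in WT (adjusted p = 0.000488) and 1.21-fold in KO (adjusted p = 0.00923). The genotypes overlapped at 4 h, and the difference of 0.13 ± 0.08 (95% confidence interval -0.05 to 0.30) was not called (adjusted p = 0.385).

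*Socs3* encodes an inhibitor that acts on JAKs at receptors with the gp130 chain. It was at 16.5, 19.9 and 21.4 CPM in WT 0 h (147 to 239 reads), 28.9, 31.8 and 22.9 CPM in KO 0 h, 8.39, 10.7 and 13.2 CPM in WT 4 h and 5.53, 5.62 and 3.67 CPM in KO 4 h (27 to 47 reads). All KO libraries were above all WT libraries at 0 h and below them at 4 h. The 0 h difference of 0.54 ± 0.15 was not called (adjusted p = 0.0952), and the 4 h difference was -1.14 ± 0.23 (adjusted p = 0.00361, 2.20-fold lower in KO). The fall over culture was 1.76-fold in WT (-0.82 ± 0.18, adjusted p = 0.00118) and 5.61-fold in KO (-2.49 ± 0.20, adjusted p = 4.78e-09).

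*Socs1* encodes the inhibitor of interferon receptor signaling and was close to the limit of detection. Its counts were 10, 13 and 33 reads in WT 0 h, 32, 18 and 35 reads in KO 0 h, 5, 2 and 22 reads in WT 4 h and 3, 12 and 8 reads in KO 4 h. The genotypes overlapped at both times. At 0 h the difference was 1.03 ± 0.39 (adjusted p = 0.267), and at 4 h it did not pass the filter on low counts and was not tested. In KO the fitted fall over culture was 3.88-fold (adjusted p = 0.00943), lost without KO 4 h replicate 1 (adjusted p = 0.0602). The gene reached 10 reads in all 6 libraries of 0 h and in 2 of 4 h, so it passed the filter mainly through the time at which it was higher, and this call is no support for a fall. In WT the change was -0.58 ± 0.54 (adjusted p = 0.443), and it ran from -1.73 to -0.04 when single libraries were left out.

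**Figure D2:**
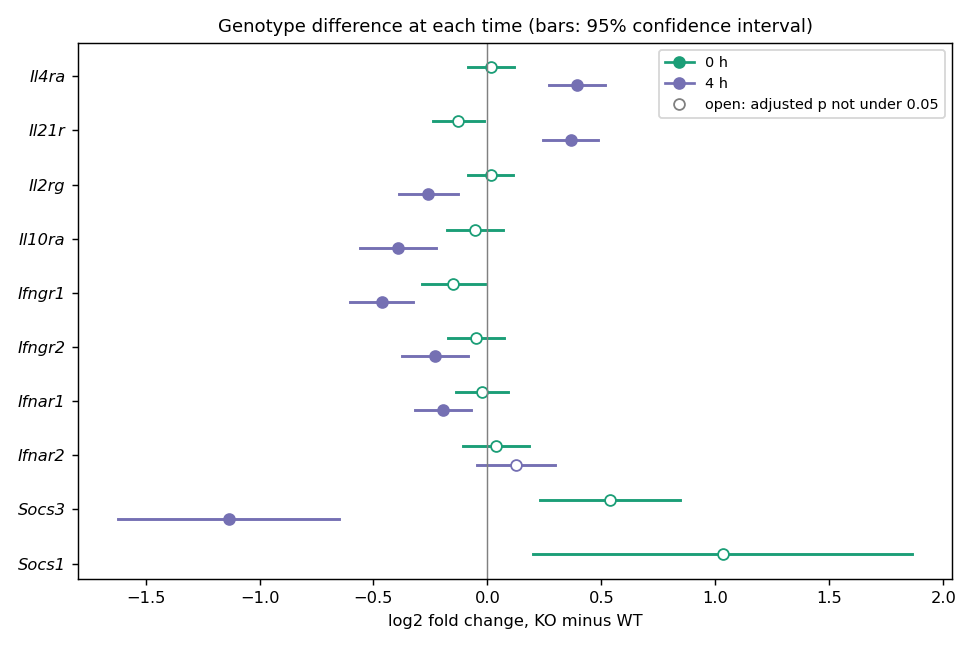
Log2 fold change, KO minus WT, of each gene at 0 h (green) and 4 h (purple), with bars for the 95% confidence interval and filled points for an adjusted p under 0.05. No point at 0 h is filled, and at 4 h values run from -1.14 for *Socs3* to 0.39 for *Il4ra*, with *Socs1* not tested.

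Beside these 4 h differences, markers of other cells gave the following sums. All 7 T cell markers were listed, and they summed to 17.7 to 27.1 CPM in WT 4 h and 22.7 to 33.7 CPM in KO 4 h. This sum was mostly *Lck*, at a mean of 14.4 CPM in WT 4 h and 22.4 CPM in KO 4 h. *Cd3e* went the other way, at a mean of 1.66 CPM in WT 4 h and 0.899 CPM in KO 4 h. Of 9 macrophage and monocyte markers 8 were listed, at 13.9 to 21.5 CPM in WT 4 h and 18.0 to 31.0 CPM in KO 4 h, and *C1qa*, *C1qb*, *C1qc* and *Cd14* were not in the 4 h table. The sums at 0 h were 44.2 to 55.6 CPM in WT and 51.6 to 52.9 CPM in KO, so the sum was lower after culture in both genotypes. *Emr1*, of the same list, went the other way in KO, with means of 3.28 CPM at 0 h and 7.27 CPM at 4 h. In WT its means were 5.77 and 4.64 CPM. Sums of dendritic cell markers did not overlap between genotypes after culture (WT 8.87 to 13.6 CPM, KO 3.42 to 7.88 CPM). The largest part of this gap was *Flt3*, whose 4 h mean was 6.64 CPM for WT against 2.33 CPM for KO. Means of *Siglech* (WT 0.663, KO 0.124 CPM) and *Zbtb46* (WT 2.84, KO 1.71 CPM) were also lower in KO. That of *Itgax* was higher in KO (WT 1.14, KO 1.44 CPM). Among all genes 27.8% had no overlap at 4 h, so the gap is given as a description. Neutrophil markers were at 21.3 to 54.0 CPM in WT 0 h, 38.2 to 108 CPM in KO 0 h, 26.6 to 51.8 CPM in WT 4 h and 19.0 to 97.3 CPM in KO 4 h. Over all 12 libraries NK cell markers summed to 2.5 to 13.1 CPM, plasma cell markers to 76.9 to 136 CPM and red cell markers to 40.5 to 125 CPM. The 4 marginal zone B cell markers, mostly *Cr2*, summed to 1080 to 1170 CPM in WT 0 h and 919 to 1100 CPM in KO 0 h. After culture the sums were lower in both genotypes, at 154 to 203 CPM in WT 4 h and 305 to 348 CPM in KO 4 h. The 4 h means of *Cr2* (WT 159, KO 300 CPM), *Cd1d1* (WT 16.9, KO 23.1 CPM) and *Cd9* (WT 3.78, KO 4.43 CPM) were higher in KO. That of *S1pr3* was lower in KO (WT 2.89, KO 2.43 CPM). B cell markers summed to 5190 to 5500 CPM in WT 4 h and 6130 to 6280 CPM in KO 4 h. The part of these differences in the results was not tested, and in bulk RNA fewer cells of a type and less RNA per cell cannot be told apart.

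Over culture, read within each genotype, more of these genes fell than rose. In WT 7 of 10 were called (33.1% of all genes were), of which *Ifnar1* and *Ifngr2* rose (15.1% of all genes did) and *Il4ra*, *Il21r*, *Il10ra*, *Ifnar2* and *Socs3* fell (18.0% of all genes did). In KO 9 of 10 were called (23.3% of all genes were), of which *Ifnar1* rose (10.3% of all genes did) and 8 fell, namely the others except *Ifngr2* (13.0% of all genes did). The 8 include *Socs1*, whose call is no support for the reason above. Libraries of 0 h and 4 h did not overlap for 7 of 10 in WT (40.8% of all genes) and 9 of 10 in KO (41.7% of all genes). These counts rest on composition scaling. With library totals alone the median of all genes moved to 0.11 in WT and 0.09 in KO, the share of called genes that rose went from 45.7% to 66.7% in WT and from 44.2% to 66.3% in KO, *Ifngr1* was then called as higher in WT (0.19, adjusted p = 0.0192), and *Ifngr1* and *Ifnar2* lost their calls in KO.

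The interferon chains gave small culture changes, several of which rested on single libraries. *Ifngr2* rose in WT by 0.20 ± 0.06 (adjusted p = 0.0195), a call lost without WT 0 h replicate 1 or 3 or WT 4 h replicate 3 (adjusted p = 0.0541 to 0.0869), and in KO it changed by 0.03 ± 0.06 (adjusted p = 0.816). *Ifngr1* changed by 0.08 ± 0.06 in WT (adjusted p = 0.315) and fell in KO by 0.22 on the log2 scale (SE 0.06, adjusted p = 0.0153). The *Ifngr1* call in KO was lost without KO 0 h replicate 3, KO 4 h replicate 1 or KO 4 h replicate 3 (adjusted p = 0.0521 to 0.0566). In KO the *Ifnar1* rise was lost without KO 0 h replicate 1 or 2 or KO 4 h replicate 1 (adjusted p = 0.0528 to 0.0622), and the *Ifnar2* fall without KO 4 h replicate 3 (adjusted p = 0.0657).

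**Figure D3:**
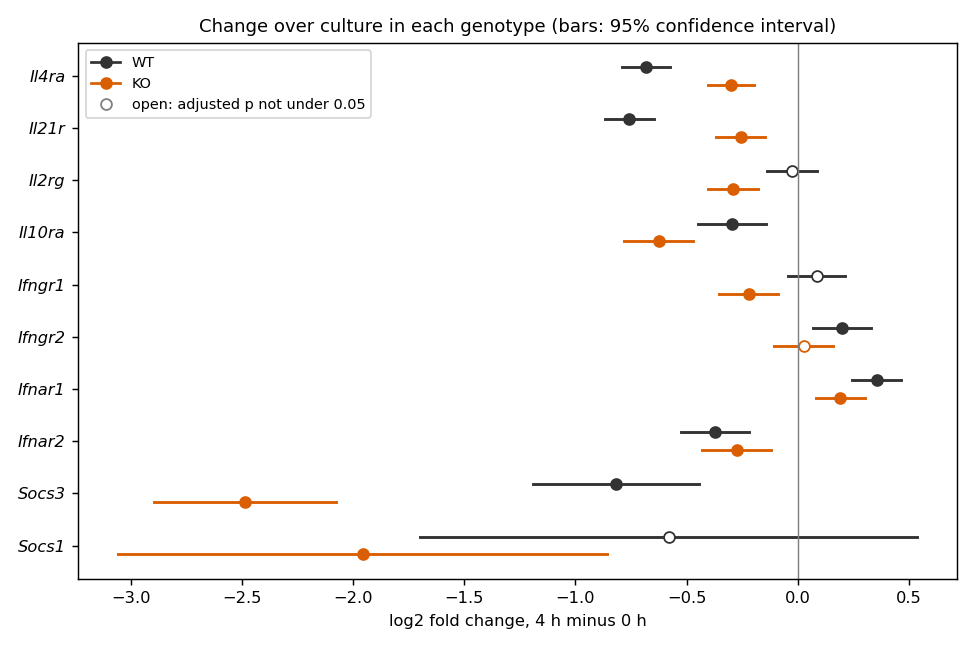
Log2 fold change, 4 h minus 0 h, of each gene in WT (black) and KO (orange), with bars for the 95% confidence interval and filled points for an adjusted p under 0.05. *Il4ra* and *Il21r* fell further in WT, at -0.68 and -0.76, than in KO, at -0.30 and -0.26, while *Socs3* fell further in KO.

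The genotypes' responses to culture were compared directly by the interaction, the KO change minus the WT change, which shares its libraries with the comparisons above. It was called for 5 of 10 genes, where 6.39% of all genes were called (3.94% with a higher and 2.45% with a lower change in KO). *Il4ra* (0.38 ± 0.07, adjusted p = 0.00144) and *Il21r* (0.50 ± 0.08, adjusted p = 0.000129) fell less in KO. *Socs3* fell more in KO (-1.67 ± 0.27, adjusted p = 0.000288). These 3 calls were kept in all 18 alternative fits. *Il2rg* (-0.27 ± 0.08, adjusted p = 0.0404) and *Ifngr1* (-0.30 ± 0.09, adjusted p = 0.0423) were called at the edge of the threshold and lost it in 11 and 13 of the 18. *Ifngr1* lost its call without any 1 library except WT 0 h replicate 2 and WT 4 h replicate 2 (adjusted p = 0.056 to 0.102), and *Il2rg* without any 1 except WT 0 h replicate 1 and WT 4 h replicate 2 (adjusted p = 0.0544 to 0.121). *Il10ra* (-0.33 ± 0.10, adjusted p = 0.0655) was not called but was with DESeq2 (adjusted p = 0.0383), and without WT 0 h replicate 1, KO 0 h replicate 2 or WT 4 h replicate 2 (adjusted p = 0.0257 to 0.0477). The interaction was -0.17 ± 0.09 for *Ifngr2*, -0.16 ± 0.08 for *Ifnar1*, 0.10 ± 0.10 for *Ifnar2* and -1.38 ± 0.77 for *Socs1*, with adjusted p of 0.261 to 0.716. The *Socs1* value ran from -1.92 to -0.22 when single libraries were left out.

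Because a receptor needs both its chains, their transcripts were also set against each other within each library, a ratio that does not depend on how libraries are scaled. Each count was divided by the merged exon length of its gene in GENCODE M21 (6.002 kb for *Il4ra*, 3.324 kb for *Il21r* and 2.387 kb for *Il2rg*). The ratio of *Il4ra* to *Il2rg* went from 0.236 ± 0.0051 at 0 h to 0.15 ± 0.014 after culture in WT cells. In KO cells it was 0.237 ± 0.0015 before and 0.235 ± 0.0095 after culture. The KO ratio thus overlapped that of 0 h (0.226 to 0.245 against 0.235 to 0.238), and all WT 4 h libraries lay below every other library. The ratio of *Il21r* to *Il2rg* went from 0.431 ± 0.015 to 0.259 ± 0.0092 in WT cells and from 0.39 ± 0.025 to 0.4 ± 0.021 in KO cells. In KO both genes of each pair fell, so an overlapping ratio describes similar relative falls and not unchanged levels.

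The interferon chains were also unequal. The ratio of *Ifnar1* to *Ifnar2* went from 1.19 ± 0.01 to 1.97 ± 0.13 in WT and from 1.14 ± 0.06 to 1.58 ± 0.09 in KO, and the 4 h genotypes did not overlap. The ratio of *Ifngr1* to *Ifngr2* went from 0.725 ± 0.029 to 0.671 ± 0.022 in WT and from 0.677 ± 0.021 to 0.573 ± 0.038 in KO, with no overlap between genotypes at either time. For these ratios a two-sided exact permutation test of 3 libraries against 3 cannot go below p = 0.1, which is what every pair of groups without overlap gave among the 16 compared. For *Il4ra* to *Il2rg* the exact test gave p = 0.9 between genotypes at 0 h and p = 0.7 between times in KO.

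**Figure D4:**
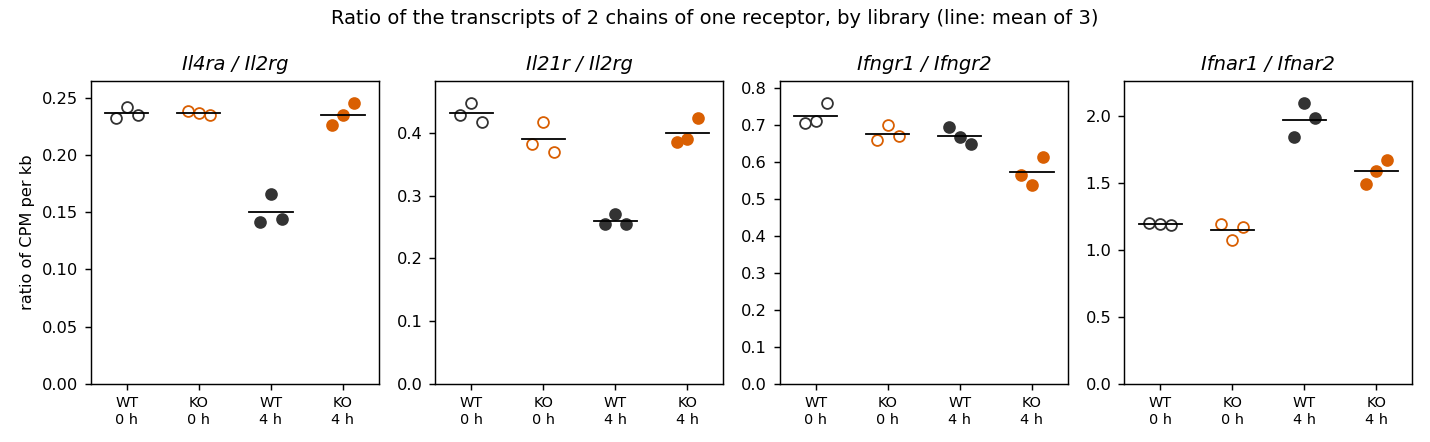
Ratio of CPM per kb (vertical axis, from 0) of 2 chains of one receptor in the 12 libraries, with WT in black, KO in orange, 0 h open, 4 h filled and a line at each mean. After culture the *Il4ra* to *Il2rg* ratio lay between 0.141 and 0.166 in WT libraries and between 0.226 and 0.245 in KO libraries.

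Per kb of exon the order of the genes at 0 h was the same in both genotypes, from *Il2rg* (217 CPM per kb in each) through *Il21r*, *Il10ra*, *Il4ra*, *Ifngr2*, *Ifngr1*, *Ifnar1*, *Ifnar2* and *Socs3* to *Socs1* (0.635 in WT and 1.32 in KO), and no neighbors in it overlapped. At 4 h *Il4ra* was the seventh in WT (31.8 ± 1.1 CPM per kb) and the fifth in KO (41.8 ± 0.98). *Il21r* was the third in WT (55.0 ± 1.9), where it did not separate from *Il10ra* (57.0 ± 7.2) or *Ifngr2* (54.5 ± 2.0). In KO it was the second (70.9 ± 1.4), above *Ifngr2* (46.6 ± 3.9) without overlap. *Ifnar1* and *Ifngr1* overlapped in WT (37.9 ± 0.86 and 36.5 ± 1.1) and did not in KO (33.2 ± 1.0 and 26.5 ± 0.54).

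The kinases and transcription factors below these receptors were examined as a list. Of 10 Janus kinases and STATs, all tested, 1 was higher and 4 were lower in KO at 4 h (5.67% and 5.22% of all genes were). *Stat4*, which transmits IL-12 and interferon signals, was at 482 to 508 CPM in WT and 169 to 188 CPM in KO (-1.49 ± 0.06, adjusted p = 3.37e-10). *Stat3*, which is used by IL-10 and IL-21 and by gp130 receptors, was at 304 to 344 CPM in WT and 145 to 159 CPM in KO (-1.11 ± 0.07, adjusted p = 1.55e-08). *Jak1*, the kinase that most of these receptors share, was lower in KO by a smaller amount (-0.27 ± 0.06, adjusted p = 0.00818), a call lost without KO 4 h replicate 2 (adjusted p = 0.0551). *Stat5b*, named after its value was seen, was also lower (-0.27 ± 0.08, adjusted p = 0.036), a call lost without any 1 library of 4 h except WT replicate 2 (adjusted p up to 0.155). *Stat2*, which acts below IFNAR, was higher in KO (0.35 ± 0.08, adjusted p = 0.0102), which was lost without KO 4 h replicate 1 (adjusted p = 0.0526). The median of the list was -0.16 against -0.005 for all genes. At 0 h 1 of the 10 was called (0.987% of all genes were). This was *Jak3*, named after its value was seen, which was higher in KO (0.45 ± 0.08, adjusted p = 0.0108) but not called without KO 0 h replicate 1 or 3 (adjusted p up to 0.0687).

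Over culture 5 of the 10 rose and 3 fell in WT (15.1% and 18.0% of all genes did), and 3 rose and 2 fell in KO (10.3% and 13.0% of all genes did). *Stat4* rose in WT (1.96 ± 0.06) and less in KO (0.45 ± 0.06), while *Stat3* rose in WT (0.80 ± 0.06) and fell in KO (-0.51 ± 0.06). The interaction was -1.50 ± 0.08 for *Stat4* (adjusted p = 1.02e-10), -1.31 ± 0.08 for *Stat3* (adjusted p = 5.51e-10), -0.29 ± 0.07 for *Jak1* (adjusted p = 0.0176) and 0.36 ± 0.10 for *Stat2* (adjusted p = 0.035). The *Jak1* call was lost without KO 0 h replicate 1 or KO 4 h replicate 2 (adjusted p up to 0.0579), and that of *Stat2* without any 1 library except WT 0 h replicate 3, WT 4 h replicate 3 and KO 4 h replicate 2 (adjusted p up to 0.0963). *Jak3*, the partner kinase of the common gamma chain, fell in both genotypes, with log2 fold changes of -1.22 ± 0.10 in WT and -1.45 ± 0.09 in KO.

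**Figure D5:**
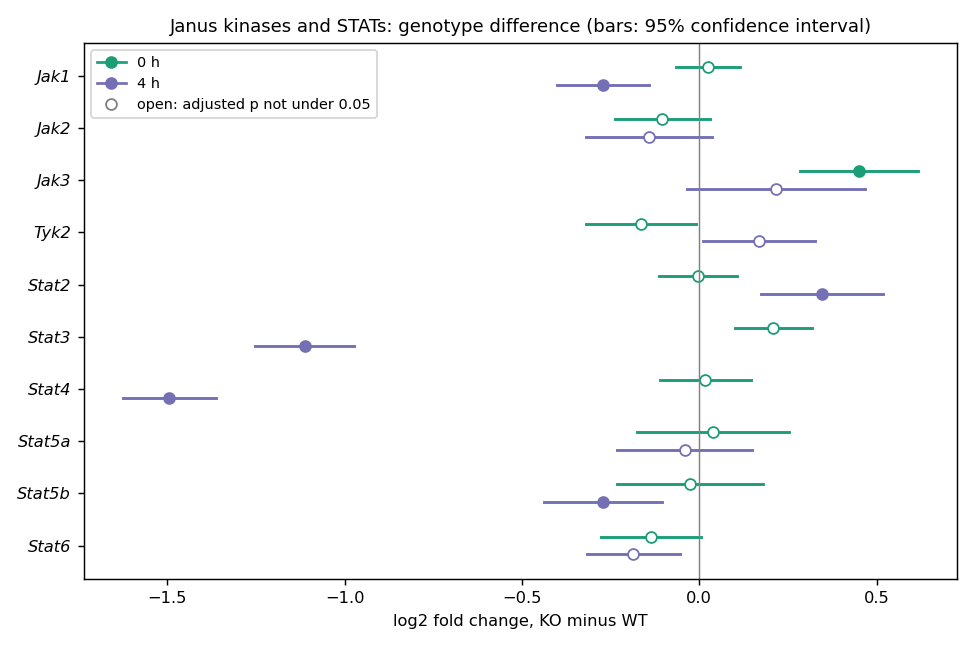
Log2 fold change, KO minus WT, of the 10 Janus kinases and STATs at 0 h (green) and 4 h (purple), with bars for the 95% confidence interval and filled points for an adjusted p under 0.05. *Stat4* and *Stat3* lie at -1.49 and -1.11 at 4 h, apart from the other kinases and STATs.

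Among the other inhibitors of the pathway, 1 of 15 tested was higher and 1 lower in KO at 4 h, shares near those of all genes (5.67% and 5.22%). *Ptpn6*, which encodes the phosphatase SHP-1, fell over culture from 617 ± 5.0 to 184 ± 14 CPM in WT and from 624 ± 9.4 to 300 ± 21 CPM in KO. It was thus higher in KO at 4 h (0.70 ± 0.07, adjusted p = 5.63e-06), and the interaction was 0.68 ± 0.08 (adjusted p = 1.15e-05). The gene called lower was *Cish*, a SOCS family member induced through STAT5, which had 13 to 17 reads per library in WT 4 h, 0 to 5 in KO 4 h and 0 to 5 at 0 h. It passed the filter on low counts only through WT 4 h, where it was high, so its calls at 4 h and as higher over culture in WT support nothing. Over culture 6 of 15 were lower in WT (18.0% of all genes were) and 4 of 15 in KO (13.0% of all genes were). *Ptpn1*, a phosphatase of JAK2 and TYK2, and *Sh2b3*, the adaptor LNK, fell in both genotypes, with log2 fold changes of -0.51 and -0.46 in WT and -0.43 and -0.52 in KO.

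Of 42 other cytokine receptor chains 31 were in both tables, and of the 24 tested at 4 h 2 were higher and 3 lower in KO (5.67% and 5.22% of all genes were). *Il27ra*, the IL-27 receptor chain, was at 46.0 to 57.0 CPM in WT 4 h and 67.9 to 78.0 CPM in KO 4 h (0.49 ± 0.09, adjusted p = 0.00173), and *Il17ra* was also higher in KO (0.21 ± 0.06, adjusted p = 0.0348), a call lost without any 1 library of 4 h except WT replicate 1 (adjusted p up to 0.181). *Il6st*, which encodes gp130, was at 36.6 to 46.8 CPM in WT 4 h and 21.6 to 26.5 CPM in KO 4 h (-0.80 ± 0.12, adjusted p = 0.000261). *Il2ra*, the high-affinity IL-2 receptor chain, was lower in KO (-0.55 ± 0.13, adjusted p = 0.0125), a call lost without WT 4 h replicate 1 or KO 4 h replicate 1 or 2 (adjusted p up to 0.0601). The third called lower was *Il1r2*, a decoy receptor for IL-1, with 20 to 33 reads in each cultured WT library and 4 to 6 in each cultured KO library, which passed the filter only through WT 4 h and is given as a description. Over culture 4 of 26 rose and 7 fell in WT (15.1% and 18.0% of all genes did), and 4 rose and 5 fell in KO (10.3% and 13.0% of all genes did), shares near those of all genes for the genes that rose in each genotype. *Il2ra* rose in both genotypes, from 2.99 ± 0.58 to 28.0 ± 4.4 CPM in WT and from 3.16 ± 0.51 to 19.0 ± 1.0 CPM in KO. *Il9r*, the IL-9 receptor chain, also rose in both, from 20.4 to 42.9 CPM in WT and from 16.8 to 33.6 CPM in KO. The falls of smallest p were those of *Il5ra*, the IL-5 receptor chain (-1.33 ± 0.10 in WT and -1.16 ± 0.10 in KO), and *Lifr*, the LIF receptor chain (-2.90 ± 0.28 and -3.65 ± 0.27), which ended at 1.16 to 2.58 CPM in the 4 h libraries. In the interaction 4 of 26 were called higher and 1 lower (3.94% and 2.45% of all genes were), led by *Il27ra* (0.69 ± 0.12), *Il17ra* (0.31 ± 0.07) and *Il10rb* (0.42 ± 0.12) on the higher side and with *Il6st* (-0.96 ± 0.18) on the lower. The *Il10rb* call was lost without any 1 library except WT 0 h replicate 3, WT 4 h replicate 3 and KO 4 h replicate 1 (adjusted p up to 0.099).

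Of 20 genes known to be induced through STATs, 18 were tested at 4 h, and 3 were higher and 1 lower in KO (5.67% and 5.22% of all genes were). *Fcer2a*, an IL-4 target that encodes CD23, was at 516 to 533 CPM in WT 4 h and 934 to 1030 CPM in KO 4 h (0.90 ± 0.06, adjusted p = 4.3e-08). *Bcl6*, the germinal center repressor that IL-21 supports, was at 120 to 130 CPM in WT 4 h and 182 to 208 CPM in KO 4 h (0.59 ± 0.07, adjusted p = 1.9e-05). *Bcl2*, a survival gene, was higher in KO (0.57 ± 0.07, adjusted p = 6.54e-05). The interferon gene *Irf7* was at 12.6, 13.4 and 37.5 CPM in WT 4 h and 6.19, 11.2 and 10.3 CPM in KO 4 h. Its difference of -1.24 ± 0.35 (adjusted p = 0.0301) rested on WT 4 h replicate 3, the library that stood apart in interferon-induced genes, and was -0.49 (adjusted p = 0.246) without it. It was also not called without any 1 of the KO 4 h libraries. Over culture 4 of 19 rose and 9 fell in WT (15.1% and 18.0% of all genes did), and 2 rose and 11 fell in KO (10.3% and 13.0% of all genes did). Without WT 4 h replicate 3, 4 rose and 12 fell in WT, and the KO counts stayed the same. The shares of all genes called without that library are not given here. All 3 that were higher in KO fell over culture in WT. The interaction was called higher for *Fcer2a* (1.10 ± 0.08), *Bcl6* (0.70 ± 0.10) and *Bcl2* (0.56 ± 0.13) and lower for *Irf9* (-0.61 ± 0.15) and *Irf1* (-0.46 ± 0.12), which carry interferon signals (3.94% and 2.45% of all genes were). Without WT 4 h replicate 3 the *Irf9* value was -0.38 (adjusted p = 0.0334) and the *Irf1* value -0.40 (adjusted p = 0.0876). The *Irf1* call was also lost without WT 0 h replicate 2, KO 0 h replicates 1 or 3, or KO 4 h replicates 1 or 2. Of 16 genes for the ligands of these receptors 2 were in both tables and 0 had enough reads to be tested.

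The genes whose level ran most like each gene with a called interaction were listed by Pearson's r of log2 CPM over the 12 libraries, points that share their 4 groups, so that any gene with the same group means scores high. For *Il4ra* these were *Lat2* (r = 0.993), *Cd22* (0.992) and *Slamf1* (0.991). For *Il21r* they were *Mndal* (0.987), *Fcer2a* (0.986) and *St6gal1* (0.986). For *Il2rg* they were *Tob2* (0.945), *Scd1* (0.939) and *Klf13* (0.937), for *Ifngr1* *Trim25* (0.965), *Tspyl1* (0.947) and *Kctd12* (0.945), and for *Socs3* *Ppargc1b* (0.946), *Pag1* (0.943) and *Gpd2* (0.943).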

How the data were processed

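The deposited values were raw read counts per gene, whole numbers in a 0 h and a 4 h table, which the authors made from single-end HiSeq2500 reads (NuGEN Ovation amplification) aligned to mm10 with STAR and counted with HTSeq. Versions, annotation and strand setting are not given in the sources used here, so reads of antisense partners cannot be told apart. Every gene listed had at least 10 reads in all within its table. Library totals of 6098941 to 11618787 counts gave a median SE of a log2 fold change of 0.111 to 0.167 by comparison, which covers counting and replicate error only. Replicates of a group differed beyond sampling noise (chi-square per degree of freedom 1.943 to 9.3).

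Groups came from the labels. Counts were filtered (filterByExpr), TMM-scaled and tested with edgeR 4.0.16 (glmQLFit, glmQLFTest) in R 4.3.3, with DESeq2 1.42.0, limma-voom 3.58.1, other scalings, no filter, other fits, a replicate block and each library left out as alternatives. Genotype used the 6 libraries of that time, and culture and the interaction used all 12. Log2 CPM used a prior count of 2. Named genes were all 10, *Gpr174*, and from each other list the called genes of smallest p in each direction (at most 3 at 4 h and in the interaction, at most 2 per genotype for culture). Genes outside this rule are *Il10rb* at 4 h, *Stat5b*, *Jak3* at 0 h, *Ifit1*, *Ifit3* and *Mx1*, named after their values were seen, as was the choice to leave out each library for the other lists. The 10 genes and all lists were chosen with earlier results of these data known, and 1 gene of the Janus kinase and STAT list is not reported here. Lengths came from GENCODE M21 and promoters from RefSeq (GRCm38.p6).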

Additional observations from a re-analysis of the deposited data

Results flagged for a closer look

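The interaction was called for 5 of the 10 genes, where 6.39% of all genes tested were called. As KO minus WT culture log2 changes these were 0.38 for *Il4ra*, 0.50 for *Il21r*, -0.27 for *Il2rg*, -0.30 for *Ifngr1* and -1.67 for *Socs3*. The calls of *Il2rg* and *Ifngr1* were lost in 11 and 13 of the 18 alternative fits, and those of the others were kept. Groups of 3 libraries are too small for the test of single outlying samples, which was not run.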

How the results depend on the processing

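At 4 h *Il4ra*, *Il21r*, *Il10ra*, *Ifngr1* and *Socs3* kept their direction and call in all 12 alternatives. The number of called genes at 4 h was 5 to 7 when a library was left out (5 without WT 4 h replicate 3 or KO 4 h replicate 3), and in the interaction it was 3 to 6, against 3 with no filter on low counts. It was 3 without WT 0 h replicate 3, KO 0 h replicates 1 or 3, WT 4 h replicates 1 or 3, or any KO 4 h replicate. The shares of all genes called in these alternative fits are not given here, so these counts describe the fits only. No uncalled value with a turned sign was past the threshold: library totals gave 0.007 for *Ifnar1* at 0 h and 0.082 for *Il2rg* over culture in WT, and leaving out a library gave -0.01 to 0.028 for *Il2rg* at 0 h, -0.064 to 0.025 for *Il2rg* over culture in WT and -0.034 to 0.085 for *Ifngr2* over culture in KO. The cause was not tested. At 0 h library totals moved the share of called genes that were higher in KO from 49.1% to 64.8%.

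The labels number replicates 1 to 3 in every group. Deviations of same-numbered libraries from their group means correlated at -0.099 to 0.0799 between genotypes. Between times the values were 0.0773 to 0.128 in WT and -0.0398 to 0.152 in KO. The labels do not settle whether same-numbered libraries of a genotype came from the same mouse. The main fits did not pair them, so the main culture and interaction p-values ignore any such pairing. With a replicate block 0 genes were called at 0 h, 6 at 4 h (*Ifngr2* and *Ifnar1* were lost), 7 and 9 over culture in WT and KO, and 5 in the interaction (*Ifngr1* lost, *Il10ra* gained). The shares of all genes called in the blocked fits are not given here, so these counts describe the fits only. In WT 6 of 6 libraries correlated best with their own number at the other time, and in KO 4 of 6. Depth limited *Socs1*, with 2 to 35 reads per library.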
